A study of Mus musculus with 6 samples.

Results

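The genes described here are 34 transcripts of the connective tissue cells of the sciatic nerve: markers of fibroblasts of the outer sheath, of the nerve interior and of the perineurial barrier, and matrix proteins that these cells make. They were chosen by name, each matched to 1 of the 54838 rows of the count table, and all 34 passed the filter on low counts, with at least 36 fragments in every library. RNA of sciatic nerves at postnatal day 3 was sequenced from 3 wild-type (WT) libraries and 3 libraries of the genotype CnpCre Actl6afl/fl, called cKO here, all of strain C57 Bl. In the cKO, Cre recombinase under the control of Cnp, a gene active in myelinating glia, acts on floxed Actl6a, which encodes the BAF53a subunit of chromatin remodelling complexes. Whether the WT animals carried a floxed allele or Cre, and how many animals entered a library is not stated in the sources used here. The p-values therefore rest on the spread from library to library, which may be technical in part. Recombination in fibroblasts was not measured, and the layer given for each gene is general knowledge, not a measurement here.

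A peripheral nerve is wrapped in layers. The epineurium is the loose outer connective tissue, whose fibroblasts carry surface proteins shared with the fibroblasts around blood vessels. The perineurium is a sleeve of flattened cells joined by tight junctions around each bundle of axons, and it forms during the days after birth under signals from Schwann cells. The endoneurium lies inside that sleeve, where fibroblasts sit between the axon and Schwann cell units and lay down collagen. Small leucine-rich proteoglycans bind collagen fibrils, and microfibrils of fibrillin carry elastin and other matrix proteins.

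Levels are given as CPM, counts scaled to library size with TMM factors for library composition, and differences as log2 fold changes of cKO minus WT from edgeR. A gene was called, and is said to have risen or fallen, where the p-value adjusted over all 18775 genes tested was below 0.05. Libraries held 31404107 to 36760296 fragments assigned to genes. The cKO replicate 2 library stood apart: 10 of 10 skeletal muscle markers were highest there, and their sum took 5.97% of its fragments against 0.366 to 0.568% in the other 5 libraries. Where leaving out that library changes the call of a gene named below, both values are given. Erythroid markers took 2.29% in cKO replicate 1, 0.779% and 0.722% in cKO replicates 2 and 3, and 0.271 to 0.396% in WT. The 6 Schwann lineage markers together took 2.12 to 2.46% in WT and 0.224 to 0.473% in cKO, and 5 of 6 macrophage markers rose. The part of these shifts in the results below was not tested. The fibroblast markers Col1a1, Col1a2, Pdgfra, Dcn and Lum, used to check the tissue, were all present. Of these 5, 0 were called with all libraries, and Pdgfra and Dcn were called higher without cKO replicate 2, as given below. On the log2 scale Actl6a itself differed by -0.17 (edgeR adjusted p = 0.243), counted over all exons of whole nerve.

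Of the 34 genes, 16 rose, 2 fell and 16 were not called. Over all genes tested, 18.8% were called, 8.55% higher and 10.3% lower. The median log2 fold change of the 34 was 0.62, against 0.04 over all genes tested, and 29 of the 34 had a positive estimate, against 54.3% of all genes. In 20 of the 34 the WT and cKO libraries did not overlap, 18 with the cKO libraries above and 2 with them below, where 42.7% of all genes tested did not overlap in either direction. Without cKO replicate 2, 25 of the 34 rose and 2 fell, where 17.8% and 17.6% of all genes did. Leaving out WT replicate 1 or WT replicate 2 instead left 10 that rose in either case. In those fits 449 of 19278 and 483 of 19300 genes tested rose. These counts are over genes that share the same libraries and often the same cells, and the genes are not independent replicates. In bulk RNA, more cells of a type and more RNA per cell cannot be told apart.

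**Figure D1:**
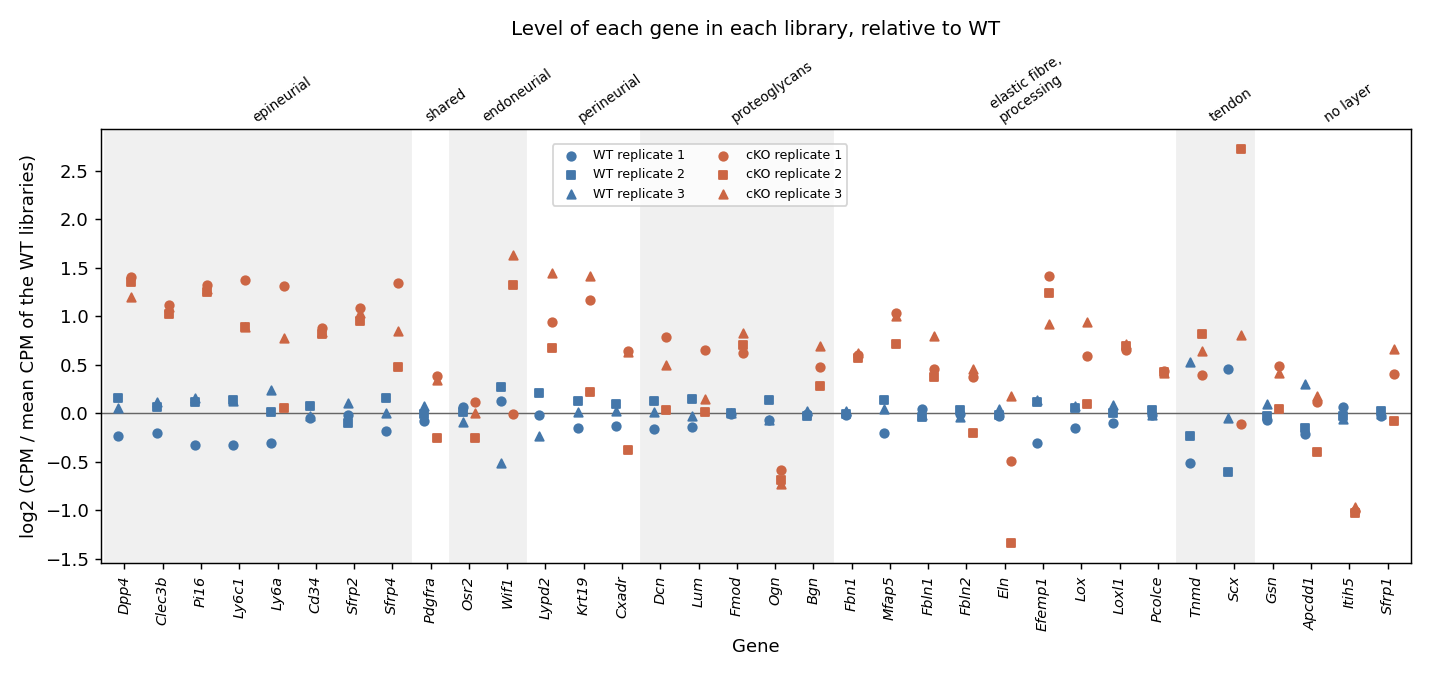
Level of each of the 34 genes in each of the 6 libraries, as log2 of CPM over the mean CPM of the 3 WT libraries (vertical axis), with genes grouped by layer or role along the horizontal axis. The cKO libraries lie above all WT libraries for 7 of the 8 epineurial genes and below them for Ogn and Itih5, and cKO replicate 2 is the lowest of the cKO libraries for 24 of the 34 genes.

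Of the 8 epineurial genes, 7 rose, 0 fell and Ly6a was not called, where 8.55% of all genes tested rose. The 8 had a median log2 fold change of 1.05 (range 0.80 to 1.32). Of the 7 calls, 6 held in all 6 fits that left out 1 library. How many of all called genes held in this way was not counted. Summed over the 8 genes, the WT libraries held 949, 1137 and 1130.5 CPM and the cKO libraries 2413, 1851 and 2066 CPM.

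To show the upstream sequence of genes that moved apart, windows of 250 bases before the start are given for Dpp4, Cd34 and Sfrp2, epineurial genes whose rise held in every fit that left out 1 library, and for Ogn and Itih5, the genes that fell. They come from RefSeq on GRCm38.p6, on the gene's own strand, at chr2:62412232-62412481 (minus strand) for Dpp4 and, on the plus strand, at chr1:194938571-194938820 for Cd34, chr3:83766071-83766320 for Sfrp2, chr13:49607765-49608014 for Ogn and chr2:10153293-10153542 for Itih5. Windows of Pi16 and Ly6c1, epineurial genes whose rise also held in every fit that left out 1 library, were searched too but are not printed. Capitals mark matches to any of the motifs named after the sequences.
Dpp4: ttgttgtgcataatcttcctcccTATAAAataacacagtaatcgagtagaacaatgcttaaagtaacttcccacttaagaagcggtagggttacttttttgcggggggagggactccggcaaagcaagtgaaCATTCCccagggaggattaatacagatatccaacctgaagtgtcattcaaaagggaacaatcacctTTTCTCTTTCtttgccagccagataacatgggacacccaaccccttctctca
Cd34: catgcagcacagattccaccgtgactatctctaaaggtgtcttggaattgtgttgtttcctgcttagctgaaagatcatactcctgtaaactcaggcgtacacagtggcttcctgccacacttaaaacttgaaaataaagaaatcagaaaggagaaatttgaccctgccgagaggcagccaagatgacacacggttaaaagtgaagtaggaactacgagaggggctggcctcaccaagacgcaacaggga
Sfrp2: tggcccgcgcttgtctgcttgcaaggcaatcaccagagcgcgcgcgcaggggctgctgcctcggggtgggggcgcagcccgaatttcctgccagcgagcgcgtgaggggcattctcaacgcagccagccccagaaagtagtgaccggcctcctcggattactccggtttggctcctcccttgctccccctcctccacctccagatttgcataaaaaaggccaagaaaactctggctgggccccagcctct
Ogn: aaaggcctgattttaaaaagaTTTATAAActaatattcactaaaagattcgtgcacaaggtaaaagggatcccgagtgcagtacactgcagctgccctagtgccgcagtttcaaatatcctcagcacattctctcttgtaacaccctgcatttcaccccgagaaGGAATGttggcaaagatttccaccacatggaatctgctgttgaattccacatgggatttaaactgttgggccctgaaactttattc
Itih5: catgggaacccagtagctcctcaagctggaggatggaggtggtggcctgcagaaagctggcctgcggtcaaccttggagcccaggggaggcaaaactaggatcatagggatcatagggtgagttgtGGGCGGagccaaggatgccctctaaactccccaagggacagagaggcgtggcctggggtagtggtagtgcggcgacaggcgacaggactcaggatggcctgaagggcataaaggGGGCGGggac

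Both strands were searched for the letters TATAAA (the TATA element), CCAAT (bound by NF-Y), GGGCGG (bound by Sp factors), GGAATG (bound by TEAD factors), TGANTCA (bound by AP-1), TTCNNNGAA (bound by STAT factors) and the interferon-stimulated response element, which is GAAA, a gap of 2 bases and GAAA again. RefSeq windows were matched for 18 of the 34 genes. The Dpp4 window held TATAAA starting 227 bases before the start, GGAATG on the opposite strand at 118 and the interferon-stimulated response element on the opposite strand at 52. That last motif was in 2 of the 18 genes, Dpp4 and Fbn1, and in 3.46% of all 27025 genes with a window. The Ogn window held TATAAA on both strands, overlapping, at 229 and 227 and GGAATG at 86. GGAATG was in 2 of the 18 genes and 14.4% of all genes, and TATAAA in 4 of the 18 and 14.3%. Itih5 held GGGCGG at 124 and 10, a motif found in 9 of the 18 genes and 35.4% of all genes. CCAAT was in 3 of the 18 (37.5% of all genes), TGANTCA in 1 (7.82%) and TTCNNNGAA in 0 (8.13%). The windows of Cd34 and Sfrp2 held none of the 7 motifs. A match is a description of the sequence only.

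Dpp4 encodes a membrane peptidase that marks the fibroblasts of outer sheaths. It read 42.4, 55.6 and 51.9 CPM in the WT libraries and 133, 127 and 114 CPM in the cKO libraries. Every cKO library was far above every WT library. The gene (ENSMUSG00000035000, chromosome 2, 62330073 to 62412231) rose 2.50-fold, from 49.98 ± 6.79 in WT to 125 ± 9.41 in cKO (mean CPM ± SD, n = 3 each), 1.32 on the log2 scale (95% interval 1.03 to 1.61, edgeR adjusted p = 0.00126).

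Pi16, a secreted peptidase inhibitor found on the same fibroblasts, read 82.7, 113 and 116 CPM in the WT libraries and 259.6, 247 and 253 CPM in the cKO libraries. The 3 cKO libraries lay close together, with the muscle-rich cKO replicate 2 among them. Pi16 (ENSMUSG00000024011, chromosome 17, 29317680 to 29330593) rose 2.44-fold, a log2 fold change of 1.28 (interval 0.95 to 1.62, edgeR adjusted p = 0.00215).

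Clec3b (tetranectin), a plasminogen-binding protein of loose connective tissue, read 139.9, 168 and 175 CPM in the WT libraries and 349, 328 and 345 CPM in the cKO libraries. It rose 2.12-fold, with a log2 fold change of 1.08 (interval 0.82 to 1.34, edgeR adjusted p = 0.00175). Per kilobase of exon Clec3b was the epineurial gene with the highest mean, at 162 in WT and 343 in cKO, although in WT its libraries overlapped those of Ly6a.

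Cd34, a sialomucin of fibroblasts and of endothelial cells, read 321, 348 and 324 CPM in the WT libraries and 609.8, 586 and 592 CPM in the cKO libraries. The spread within each group was small and the groups did not overlap. Cd34 rose 1.80-fold (log2 fold change 0.85, edgeR adjusted p = 0.00195). Among the 6 endothelial markers, 1 rose (Tek, 0.80) and their median was 0.23. Pecam1, which defines that cell type, had 0.32 (edgeR adjusted p = 0.112). The part of endothelial cells in the Cd34 result was not tested.

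Sfrp2 and Sfrp4 encode secreted frizzled-related proteins, which bind Wnt ligands. Sfrp2 read 23.6, 22.3 and 25.8 CPM in the WT libraries and 50.5, 46.2 and 48.8 CPM in the cKO libraries and rose 2.03-fold (log2 fold change 1.02, edgeR adjusted p = 0.00112). Exons of Gm26771 overlap 16.1% of its exonic bases, and counting without strand cannot separate them. Sfrp4 read 171, 217 and 195 CPM in the WT libraries and 491, 271 and 350.2 CPM in the cKO libraries. Its cKO libraries were spread wider than those of Sfrp2, with cKO replicate 2 lowest. Sfrp4 rose 1.91-fold (log2 fold change 0.93, edgeR adjusted p = 0.0308), a call lost without any 1 WT library (adjusted p 0.0893 to 0.126) or without cKO replicate 3 (0.0749).

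Ly6a (Sca-1) and Ly6c1 are small proteins anchored to the cell surface that mark fibroblasts and also endothelial and blood cells, and both are known to respond to interferons. Ly6c1 read 29.03, 40.03 and 39.8 CPM in the WT libraries and 94.2, 67.3 and 67.2 CPM in the cKO libraries and rose 2.10-fold (log2 fold change 1.07, edgeR adjusted p = 0.0104). Ly6a read 139, 173 and 203 CPM in the WT libraries and 426, 178 and 295 CPM in the cKO libraries, and the groups overlapped because cKO replicate 2 lay inside the WT range. On the log2 scale Ly6a differed by 0.80 (interval 0.02 to 1.59, edgeR adjusted p = 0.138), and without cKO replicate 2 it was 1.07 (adjusted p = 0.0311). Of the 50-base words in their transcripts, 32.8% for Ly6c1 and 18.97% for Ly6a occur in another gene, mainly Ly6c2, Ly6i or each other, so these counts are uncertain.

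Pdgfra, the platelet-derived growth factor receptor shared by epineurial and endoneurial fibroblasts, was not called. It read 258, 270.1 and 287 CPM in the WT libraries and 355, 228 and 344 CPM in the cKO libraries. The cKO replicates 1 and 3 lay above all WT libraries and cKO replicate 2 below them. The Pdgfra difference was 0.19 on the log2 scale (interval -0.23 to 0.60, edgeR adjusted p = 0.479). Leaving cKO replicate 2 out gave Pdgfra 0.36 (adjusted p = 0.00287). Exons of Gm42802, Gm42803 or Mir7025 overlap 6.5% of the exonic bases of Pdgfra.

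Ratios to Pdgfra within each library set 4 of the 8 epineurial genes against a shared fibroblast gene. Sfrp2, Sfrp4, Ly6a and Ly6c1 were left out, and of the endoneurial genes only Osr2 was taken, not Wif1. The ratios therefore do not describe either layer as a whole. The Dpp4 to Pdgfra ratio was 0.165, 0.206 and 0.181 in WT and 0.374, 0.560 and 0.333 in cKO. For Pi16 the ratio was 0.320, 0.418 and 0.405 in WT and 0.731, 1.08 and 0.735 in cKO. Clec3b gave 0.542, 0.622 and 0.610 in WT and 0.982, 1.44 and 1 in cKO, and Cd34 gave 1.24, 1.29 and 1.13 in WT and 1.72, 2.58 and 1.72 in cKO. For these 4 genes every cKO ratio was above every WT ratio, and the ratio was highest in cKO replicate 2, where Pdgfra was lowest. The ratio of the endoneurial gene Osr2 was 0.108, 0.0993 and 0.0872 in WT and 0.0811, 0.0981 and 0.0773 in cKO, and its groups overlapped. In exact 2-sided permutation tests over the 6 libraries, p was 0.100 for each of the 4 epineurial genes, the smallest value that 3 against 3 libraries can give, and 0.200 for Osr2 (0.125 and 0.200 adjusted over the 5 ratios), so this design could not pass the threshold.

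**Figure D2:**
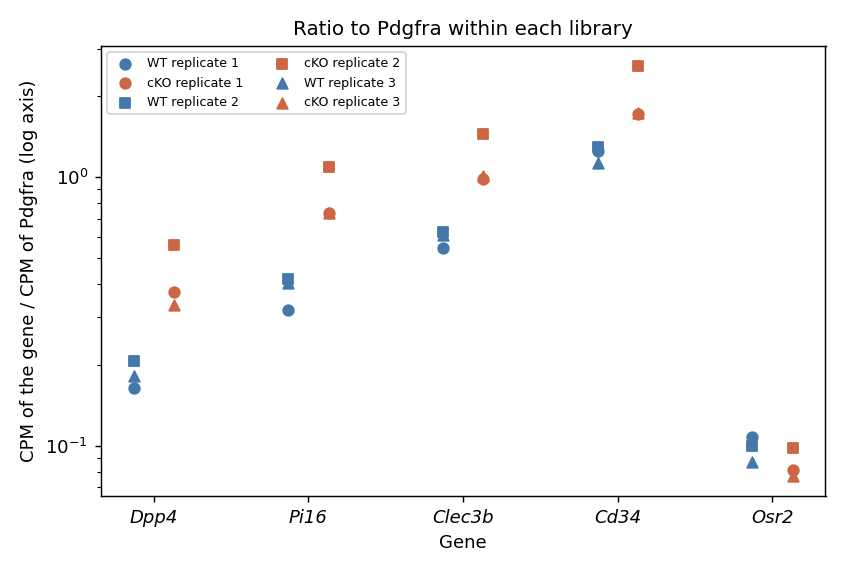
CPM of 4 epineurial genes and of the endoneurial gene Osr2 divided by CPM of Pdgfra (vertical, log axis), 1 point per library. The cKO points lie above all WT points for Dpp4, Pi16, Clec3b and Cd34, and overlap them for Osr2.

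The endoneurial genes were not called. Osr2, a zinc finger transcription factor, read 27.8, 26.8 and 24.98 CPM in the WT libraries and 28.8, 22.3 and 26.6 CPM in the cKO libraries. Its log2 fold change was -0.03 (interval -0.31 to 0.25, edgeR adjusted p = 0.859), an interval that leaves out a change of the size seen in Dpp4 or Pi16. Wif1, a secreted Wnt inhibitor, was near the limit of detection at 1.53, 1.70 and 0.985 CPM in the WT libraries and 1.40, 3.52 and 4.37 CPM in the cKO libraries. The cKO replicates 2 and 3 were above all WT libraries and cKO replicate 1 inside their range. Its log2 fold change was 1.14 (interval 0.10 to 2.18, edgeR adjusted p = 0.118), and it was called without cKO replicate 1 (1.49, adjusted p = 0.0223).

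Among the 3 perineurial genes, 1 rose and 0 fell, where 8.55% of all genes tested rose and 10.3% fell. All 3 were at low or moderate levels. Lypd2, a small surface protein of the Ly6 family, read 3.64, 4.27 and 3.12 CPM in the WT libraries and 7.05, 5.85 and 10 CPM in the cKO libraries and rose 2.08-fold (log2 fold change 1.06, edgeR adjusted p = 0.0246). That call was lost without any 1 WT library (adjusted p 0.0716 to 0.107) or without cKO replicate 3 (0.0604). Krt19, a keratin of simple epithelia, read 3.10, 3.78 and 3.48 CPM in the WT libraries and 7.78, 4.02 and 9.20 CPM in the cKO libraries, with cKO replicate 2 only just above the WT libraries. The Krt19 estimate was 1.02 (edgeR adjusted p = 0.0574). Leaving cKO replicate 2 out gave Krt19 1.30 (adjusted p = 2.72e-05). Cxadr, an adhesion protein of tight junctions, read 42.1, 49.3 and 46.7 CPM in the WT libraries and 71.7, 35.5 and 71.3 CPM in the cKO libraries, high in cKO replicates 1 and 3 and below WT in cKO replicate 2. Its estimate was 0.37 (edgeR adjusted p = 0.364) and 0.63 without that library (adjusted p = 7.42e-05). Exons of Btg3 or Gm49590 overlap 9.46% of the exonic bases of Cxadr.

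The matrix genes moved less than the epineurial ones on their estimates and not all one way. Of 14, 8 rose, 1 fell and 5 were not called, with a median log2 fold change of 0.53, against 8.55% of all genes that rose and 10.3% that fell. The difference between the epineurial and matrix lists was not tested. Of the 9 calls, 4 held in all 6 fits that left out 1 library (Fmod, Mfap5, Efemp1 and Loxl1), a share that was not counted over all genes. Without WT replicate 1, 2 or 3 there were 5, 4 and 5 calls. Of all genes, 449, 483 and 456 rose and 829, 822 and 790 fell in those fits.

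The small leucine-rich proteoglycans split. Ogn (osteoglycin, mimecan), a keratan sulphate proteoglycan that takes part in collagen fibril assembly, read 1313, 1515 and 1314 CPM in the WT libraries and 919, 859 and 836 CPM in the cKO libraries. All cKO libraries were below all WT libraries. The gene (ENSMUSG00000021390, chromosome 13, 49608046 to 49624501) fell 1.58-fold, from 1381 ± 117 in WT to 871 ± 42.7 in cKO (mean CPM ± SD, n = 3 each), -0.66 on the log2 scale (interval -0.93 to -0.40, edgeR adjusted p = 0.00915). The call was lost without WT replicate 2 (adjusted p = 0.0579), with an estimate of -0.61 there.

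Fmod (fibromodulin), which binds fibrillar collagen and regulates its crosslinking, read 16.6, 16.7 and 16.7 CPM in the WT libraries and 25.7, 27.2 and 29.6 CPM in the cKO libraries and rose 1.65-fold (log2 fold change 0.72, edgeR adjusted p = 0.00368). The WT libraries were almost level and lay below all cKO libraries. Bgn (biglycan) read 533, 526 and 542 CPM in the WT libraries and 745, 651 and 864 CPM in the cKO libraries and rose 1.41-fold (log2 fold change 0.50, edgeR adjusted p = 0.0362), a call that, when each library was left out in turn, held only without cKO replicate 2.

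Dcn (decorin), the most abundant of the proteoglycans in cKO per exon length, read 2364, 2869 and 2667 CPM in the WT libraries and 4547, 2701 and 3731 CPM in the cKO libraries. The groups overlapped because cKO replicate 2 lay in the WT range. For Dcn the estimate was 0.47 (edgeR adjusted p = 0.147). Leaving cKO replicate 2 out gave Dcn 0.65 (adjusted p = 0.000587). Lum (lumican) read 587, 714 and 635 CPM in the WT libraries and 1013, 651 and 715 CPM in the cKO libraries and had 0.30 (edgeR adjusted p = 0.289), and 0.42 without that library (adjusted p = 0.0612).

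Of the 9 genes of elastic fibres and collagen processing, 6 rose, 0 fell and 3 were not called. Over all genes tested, 8.55% rose and 10.3% fell. Fbn1 (fibrillin-1), the scaffold of microfibrils, read 1049, 1058 and 1082 CPM in the WT libraries and 1618, 1582 and 1640.5 CPM in the cKO libraries. The cKO libraries lay close to each other and above all WT libraries. Fbn1 rose 1.52-fold (log2 fold change 0.60, edgeR adjusted p = 0.00766), a call lost without any 1 WT library (adjusted p 0.0502 to 0.0669). Gm9913 overlaps 20.1% of its exonic bases.

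Mfap5, a microfibril glycoprotein that binds fibrillin and also marks adventitial fibroblasts, read 278, 352 and 329.7 CPM in the WT libraries and 658, 525 and 643 CPM in the cKO libraries and rose 1.90-fold (log2 fold change 0.93, edgeR adjusted p = 0.00612). Efemp1 (fibulin-3) read 36.3, 48.96 and 49.7 CPM in the WT libraries and 120.4, 106 and 85.1 CPM in the cKO libraries and rose 2.31-fold (log2 fold change 1.21, interval 0.80 to 1.61, edgeR adjusted p = 0.0052), the largest estimate among the 14 matrix genes. Fbln1 (fibulin-1) read 48.01, 45.3 and 46.1 CPM in the WT libraries and 63.9, 60.3 and 80.9 CPM in the cKO libraries and rose 1.47-fold (log2 fold change 0.56, edgeR adjusted p = 0.0231), a call lost without any 1 WT library (adjusted p 0.0877 to 0.109). Fbln2 (fibulin-2) read 346, 357 and 339 CPM in the WT libraries and 451, 301 and 477 CPM in the cKO libraries, with cKO replicate 2 below WT and the other cKO libraries above. Its estimate was 0.24 (edgeR adjusted p = 0.367) and 0.42 without that library (adjusted p = 0.000984).

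Eln (elastin), the core of the elastic fibre, was not called. It read 1017, 1025 and 1073 CPM in the WT libraries and 741, 411 and 1174 CPM in the cKO libraries. The WT libraries agreed closely, whereas the cKO libraries ran from well below to above WT. Elastin's estimate was -0.42 on the log2 scale (interval -1.28 to 0.43, edgeR adjusted p = 0.429). Leaving cKO replicate 2 out gave Eln -0.12 (adjusted p = 0.659).

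Loxl1 and Lox encode lysyl oxidases, which crosslink elastin and collagen. Loxl1 read 97.1, 104 and 110.0 CPM in the WT libraries and 164, 169 and 170.5 CPM in the cKO libraries and rose 1.61-fold (log2 fold change 0.69, edgeR adjusted p = 0.00291). Lox read 333, 383 and 388 CPM in the WT libraries and 555, 395 and 709 CPM in the cKO libraries. Its cKO libraries were above WT but wide apart, and the log2 fold change of 0.59 was not called (edgeR adjusted p = 0.0968), while without cKO replicate 2 it was 0.78 (adjusted p = 0.000164). Pcolce, which enhances the removal of the procollagen C-propeptide, read 336, 347 and 335 CPM in the WT libraries and 459, 457 and 453 CPM in the cKO libraries and rose 1.34-fold (log2 fold change 0.43, edgeR adjusted p = 0.0158). It was the smallest rise called among the 34 genes, and it lost its call without any 1 WT library and without cKO replicate 3.

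**Figure D3:**
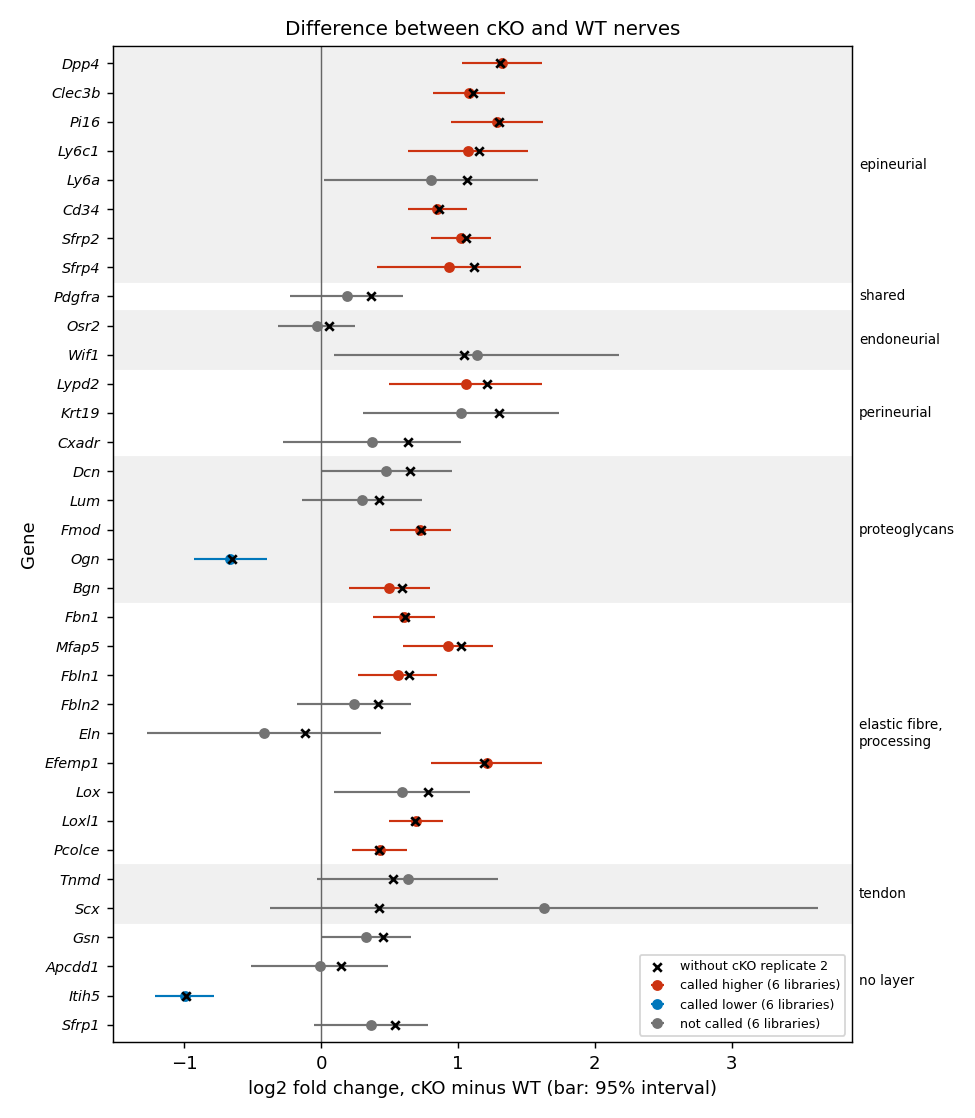
Log2 fold change of each of the 34 genes, cKO minus WT (horizontal axis), from 6 libraries (points, with 95% intervals) and without cKO replicate 2 (crosses). Red points are the 16 genes called higher and blue points Ogn and Itih5, called lower, and crosses lie near the points for the epineurial genes other than Ly6a and Sfrp4 and far from the point for Scx.

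Itih5 showed the largest fall of the 34 genes. It encodes a heavy chain of the inter-alpha-trypsin inhibitor family, secreted proteins that bind hyaluronan. It read 726, 681 and 666 CPM in the WT libraries and 343, 339 and 355 CPM in the cKO libraries. The 3 cKO libraries lay close together, far below WT. Itih5 (ENSMUSG00000025780, chromosome 2, 10153571 to 10256529) fell 2-fold, from 691 ± 31.2 in WT to 346 ± 8.22 in cKO (mean CPM ± SD, n = 3 each), -0.999 on the log2 scale (interval -1.22 to -0.78, edgeR adjusted p = 0.00123). The estimate ran from -1.03 to -0.97 over the fits that left out 1 library, with the call held in all 6. Markers of the Schwann lineage fell in the same libraries (median -1.24, 5 of 6 called), and their part in the results for Itih5 and Ogn was not tested.

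Of the other genes with no single layer, 0 were called. Gsn (gelsolin), which severs actin filaments and also has a secreted form, read 402, 412 and 448 CPM in the WT libraries and 589.8, 433 and 562 CPM in the cKO libraries, and differed by 0.33 on the log2 scale (edgeR adjusted p = 0.144). Sfrp1, a further Wnt-binding frizzled-related protein, read 116, 119.9 and 118 CPM in the WT libraries and 156, 112 and 187 CPM in the cKO libraries and had 0.36 (edgeR adjusted p = 0.194). Without cKO replicate 2 Gsn had 0.45 (adjusted p = 0.000859) and Sfrp1 0.54 (adjusted p = 0.00025). Apcdd1, a membrane inhibitor of Wnt signalling, read 7.49, 7.81 and 10.7 CPM in the WT libraries and 9.39, 6.60 and 9.80 CPM in the cKO libraries, and its groups overlapped, with cKO replicate 2 lowest and WT replicate 3 highest of the 6 libraries (log2 fold change -0.01, edgeR adjusted p = 0.975).

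The tendon genes were not called. Scx (scleraxis), a transcription factor of tendon progenitors, read 4.69, 2.25 and 3.31 CPM in the WT libraries and 3.16, 22.6 and 6 CPM in the cKO libraries. It was high in cKO replicate 2, the library rich in skeletal muscle transcripts, and low in the other 5. Its log2 fold change was 1.63 with all libraries (edgeR adjusted p = 0.212), but 0.43 when cKO replicate 2 was left out (adjusted p = 0.445). Tnmd (tenomodulin), a membrane protein of mature tendon cells, read 8.06, 9.80 and 16.6 CPM in the WT libraries and 15.2, 20.3 and 17.9 CPM in the cKO libraries. The groups overlapped through WT replicate 3, and the log2 fold change was 0.63 (edgeR adjusted p = 0.161). It was called without WT replicate 3 (0.99, adjusted p = 0.0388).

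Levels per exon length order the 34 genes in each genotype, as CPM per kilobase. In WT, Ogn was highest at 538, followed by Dcn at 451, Lum at 264 and Clec3b at 162, and the ranges of the WT libraries did not overlap between these neighbours. In cKO Dcn had the highest mean at 627. The cKO means of Clec3b at 343, Ogn at 339.6 and Lum at 324 followed, and the cKO libraries of these 3 genes overlapped, so they have no order. Dpp4 moved from 7.91 to 19.8 and Pi16 from 16.3 to 39.8. Itih5, level with Fbn1 (87.7), Bgn (87.5) and Pcolce (88.9) in WT at 87.5, stood at 43.8 in cKO. Wif1 was lowest in both, at 0.580 and 1.28. Of the 33 neighbouring pairs in the WT order, 18 had overlapping library ranges.

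**Figure D4:**
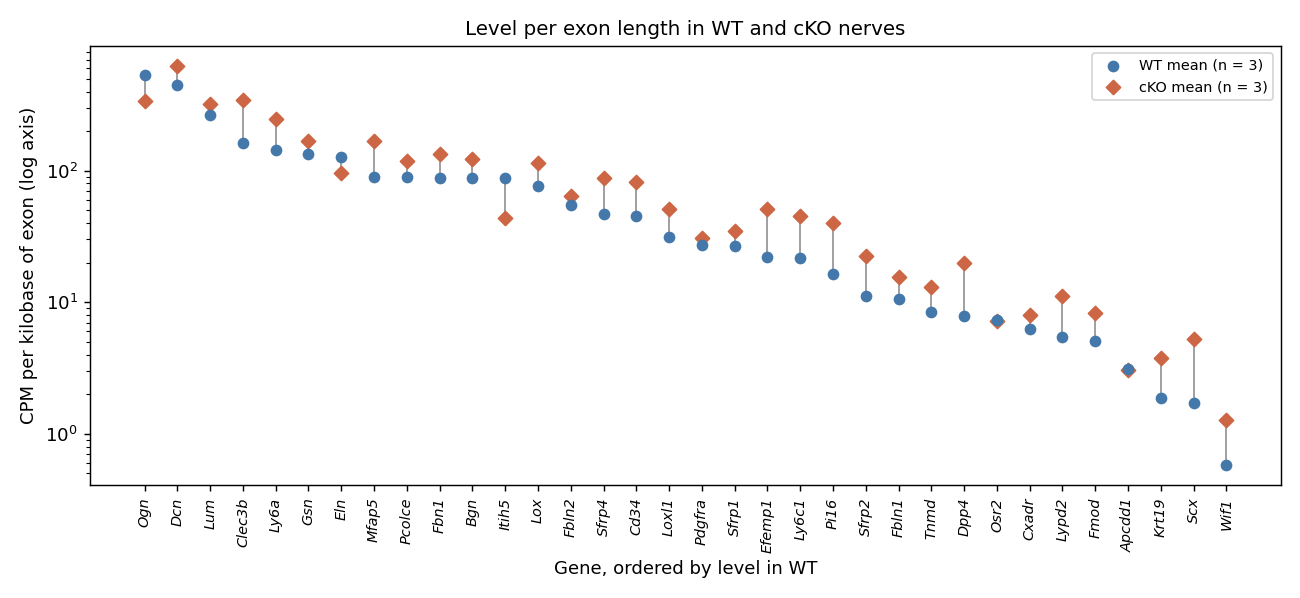
Mean level of each gene in WT (circles) and cKO (diamonds), 3 libraries each, as CPM per kilobase of exon on a log axis, ordered by the WT level. The cKO mean is below the WT mean for Ogn and Itih5, which were called lower, and for Eln, which was not called and whose cKO libraries span the WT range. It is also slightly below the WT mean for Osr2 (7.32 in WT, 7.15 in cKO) and Apcdd1 (3.10 and 3.07), neither of them called. The 8 epineurial genes have higher means in cKO.

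Other genes of the same layers and matrix classes were taken from lists that do not repeat the 34, and their single values below are log2 fold changes unless given in CPM. Of 8 further epineurial and adventitial fibroblast genes, 5 rose, 0 fell and 3 were not called, with a median log2 fold change of 0.64. Over all genes, 8.55% rose and 10.3% fell with all libraries, the share for all-library counts here and in the lists that follow. Of the 8, 2 rose without any 1 WT library, 3 without cKO replicate 1 and 7 without cKO replicate 2. For fits with a library left out, here and in the lists that follow, the share over all genes differed. Without WT replicates 1, 2 and 3, 449 of 19278, 483 of 19300 and 456 of 19305 genes rose and 829, 822 and 790 fell. Without cKO replicate 1, 1345 of 19169 rose and 1772 fell, and without cKO replicate 3, 835 of 19084 rose and 1166 fell. Without cKO replicate 2, 17.8% rose and 17.6% fell. Sema3c, a secreted guidance protein, read 238, 292 and 235 CPM in the WT libraries and 533, 547 and 578 CPM in the cKO libraries (1.12, edgeR adjusted p = 0.0019). Cd55, which protects cells from complement, read 38.4, 51.6 and 49.5 CPM in the WT libraries and 102, 111 and 93.5 CPM in the cKO libraries (1.14, edgeR adjusted p = 0.00262). In both genes the groups did not overlap, and both calls held in all 6 fits with 1 library left out. Among 8 broad fibroblast genes, 4 rose, 0 fell and 4 were not called (median 0.60), and 6 rose without cKO replicate 2. Those with the smallest p were Lsp1, an actin-binding protein (0.79), and Prrx1, a mesenchymal homeobox factor (0.58), both called. The fibrillar collagen genes of that list, named after their values were seen, were not called with all libraries: Col1a1 had -0.0023, Col1a2 -0.06 and Col3a1 0.34. Col3a1 was called higher without cKO replicate 2 (0.44, adjusted p = 0.00477).

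Of 6 further endoneurial genes, 1 rose, 1 fell and 4 were not called, and the 2 calls were large and opposite. Cxcl14, a chemokine, read 9.15, 8.07 and 8.02 CPM in the WT libraries and 129.7, 43.1 and 72.3 CPM in the cKO libraries and rose 9.71-fold (log2 fold change 3.28, edgeR adjusted p = 0.00672). Mme (neprilysin), a membrane peptidase also made by Schwann cells of developing nerve, read 683, 732 and 710.2 CPM in the WT libraries and 129, 57.96 and 86.7 CPM in the cKO libraries and fell 7.77-fold (log2 fold change -2.96, edgeR adjusted p = 0.00183). No cKO library approached the WT range in either gene. The median of the list was 0.19, and 3 of its genes rose without cKO replicate 2 and 1 fell, while 2 fell without cKO replicate 1.

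Of 8 further perineurial genes, 1 rose, 1 fell and 6 were not called (median 0.12). Ntn4, a netrin of basement membranes, read 5.78, 5.99 and 6.16 CPM in the WT libraries and 8.17, 9.65 and 8.23 CPM in the cKO libraries (0.54, edgeR adjusted p = 0.0304). Itgb4, a laminin receptor subunit that Schwann cells also carry, read 85.4, 75.6 and 73.1 CPM in the WT libraries and 45.6, 21.8 and 44.4 CPM in the cKO libraries (-1.07, edgeR adjusted p = 0.0466). Leaving out each library in turn kept the call of Ntn4 in 2 and that of Itgb4 in 1 of 6 fits. When any 1 WT library, or cKO replicate 3, was left out, 0 of the 8 rose and 0 fell. Leaving out cKO replicate 2, 4 rose and 2 fell. Without cKO replicate 1, 1 rose and 0 fell. Slc2a1 and Cldn1, genes of the barrier named after their values were seen, were not called with all libraries (0.21 and 0.32) and were called higher without cKO replicate 2 (0.42, adjusted p = 0.00245, and 0.59, adjusted p = 8.77e-05). Tjp1, a tight junction gene of the same list also named after its value was seen, went the other way. It had -0.39 with all libraries (edgeR adjusted p = 0.0679) and was called lower without cKO replicate 2 (-0.28, adjusted p = 0.0122).

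Among 8 further small leucine-rich proteins, 5 rose, 0 fell and 3 were not called (median 0.65). That count was 0 without WT replicate 1 or 3, 2 when either WT replicate 2 or cKO replicate 3 was left out, 3 without cKO replicate 1 and 6 without cKO replicate 2. Ecm2 had 0.65 (edgeR adjusted p = 0.0087), and Aspn (asporin), which lies with Ecm2 and Ogn in one stretch of chromosome 13 (49544443 to 49567565), had 0.89 (edgeR adjusted p = 0.0108) from 523, 654 and 574 CPM in the WT libraries and 1067, 909 and 1271 CPM in the cKO libraries. Omd (49582462 to 49592822 on the same chromosome) had 0.81 (edgeR adjusted p = 0.043) and was named after its value was seen. With all libraries Ogn was thus called lower and its neighbours Aspn, Omd and Ecm2 higher. The calls of Aspn (adjusted p = 0.0622 and 0.0646) and Ecm2 (0.0543 and 0.0571) were lost without WT replicates 1 and 3, and that of Omd held in 1 of 6 fits with a library left out, the one without cKO replicate 2. Among 12 further genes of elastic fibres and crosslinking, 4 rose, 1 fell and 7 were not called (median 0.42). Instead of 4, 1 rose without any 1 WT library, 2 without cKO replicate 3 and 6 without cKO replicate 2. Pcolce2 is on this list and on the further epineurial one, and Kera on the proteoglycan and tendon lists. Pcolce2 was called higher with all libraries (1.25, edgeR adjusted p = 0.0432) but not without cKO replicate 2 (1.25, adjusted p = 0.121). Mfap4, a microfibril protein, had 0.93 and the lysyl oxidase Loxl3 -0.37, both called, that of Loxl3 in 3 of 6 fits with a library left out and lost without any 1 WT library. Among 6 further tendon genes, 1 rose, 0 fell and 5 were not called. Mkx (mohawk), a homeobox factor of tendon, read 1.71, 1.73 and 1.67 CPM in the WT libraries and 11.2, 7.82 and 10 CPM in the cKO libraries and rose 5.66-fold (edgeR adjusted p = 0.00058), with all cKO libraries above all WT libraries. Kera (keratocan) had 0.65 (edgeR adjusted p = 0.131).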

How the data were processed

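RNA of sciatic nerves was measured in 6 libraries, 3 WT and 3 cKO, grouped by the sample titles. The authors deposited 1 table of raw fragment counts per gene. Fragments were assigned with featureCounts 1.6.1, per the file headers, to exons of Ensembl GRCm38 release 95, with both ends required, mapping quality of at least 20, and strand ignored. Subread 2.0 and DESeq2 1.3 are named in the submitters' processing notes. About 150 ng of RNA entered each library, per the labels' protocols. The table also holds exonic lengths in bases, as the authors deposited them.

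Counts were tested in edgeR 4.0.16 (R 4.3.3): filterByExpr by group (minimum count 10), TMM factors, robust dispersions, 2-sided quasi-likelihood F test with 4 residual degrees of freedom, p-values adjusted (Benjamini-Hochberg) over 18775 genes. Intervals were derived from that statistic. Symbols were matched for 54723 of 54838 identifiers. Alternatives were DESeq2 1.42.0, other scalings, no filter, a replicate block, a muscle covariate and leaving out each library. The test was first run on simulated counts, and the outcome of that run, not given here, is not used as support for any call. Replicates differed beyond counting noise (chi-square over its degrees of freedom was 8.26 to 312 within groups).

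The 34 genes and the lists were chosen with earlier results of these data known. Named genes are all 34 and, of each further list, the 2 with the smallest p; the few others were chosen after their values were seen, as said beside them.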

Additional observations from a re-analysis of the deposited data

How the results depend on the processing

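Replicate numbers did not pair the libraries: same-numbered WT and cKO libraries had correlations of -0.29, -0.30 and -0.10 between their deviations from the group means. With the replicate number as a block, 9 of the 34 genes rose and 1 fell, and 744 and 1108 of all genes did. With that block 5 epineurial, 0 perineurial and 4 matrix genes were called. With the muscle share as a covariate, 26 of the 34 rose, 3231 and 3292 of all genes rose and fell, and 3 perineurial genes were called. Scaling by library size alone gave 12 of the 34 higher, and 1121 of all genes higher and 1161 lower. DESeq2 and the fit with no filter each called 2 perineurial genes. Of all genes, DESeq2 gave 2254 higher and 2353 lower, and the fit with no filter 1592 and 1899. Epineurial calls were 6 by library size alone and with no filter, and 8 with DESeq2 and with the muscle covariate. Leaving out 1 library gave 10 to 25 of the 34 higher (most without cKO replicate 2, fewest without WT replicates 1 or 2) and 1 to 2 lower, 449 to 3425 and 790 to 3398 of all genes higher and lower, and 6 to 8 epineurial, 0 to 3 perineurial and 4 to 12 matrix calls. Over the 34 genes and all alternatives, 340 estimates kept their direction and side of the threshold, 37 lost and 25 gained a call, and 6 changed sign, none of them called: Osr2 with the muscle covariate (0.081) and without cKO replicate 2 (0.060, range over the libraries left out -0.120 to 0.060), and Apcdd1 by library size alone (0.0102), with the muscle covariate (0.15), without WT replicate 3 (0.16) and without cKO replicate 2 (0.14; range -0.117 to 0.163). Of the further lists with all libraries and by main scaling, 5 epineurial, 5 proteoglycan and 4 elastic fibre genes rose, against 2, 3 and 1 with the block and 3, 2 and 3 by library size alone; with no filter 3 epineurial genes did. The cause of these shifts was not tested. Scx and Wif1, which had the lowest level or wide cKO libraries, carried the widest standard errors of the 34 (0.80 and 0.44).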
